A study of Cavia porcellus with 34 samples.

Results

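The effect of exposure to sGC (F0) on the paraventricular nucleus (PVN) of the second generation (F2) was measured by RNA sequencing in 5 F2 sGC and 5 F2 Veh animals, 10 of the 34 samples listed for the series, of which 32 have a column of values. All 10 were juvenile female guinea pigs (Cavia porcellus) of the paternal line, studied at postnatal day 40, and they were grouped by the in utero treatment given in their labels. F0 mothers had received the synthetic glucocorticoid betamethasone (sGC, labelled Beta) or saline (Veh, labelled Control) in pregnancy, and the F2 animals descended from F1 fathers exposed as fetuses and received no treatment themselves. Per the study's methods the micropunch held the whole PVN and could include adjacent hypothalamus, animals were in the basal state, and sample numbers stand for independent litters. The comparison asks which genes of the PVN differ between the 2 lines, over the 11965 of 12207 genes with a mean value of at least 10.

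The PVN drives the stress axis. Its parvocellular neurons release CRH, which makes the pituitary secrete ACTH and the adrenal secrete cortisol, and its magnocellular neurons make vasopressin and oxytocin. The nucleus borders the third ventricle, whose wall is lined by ependymal cells with motile cilia. Axons that cross it are wrapped by oligodendrocytes, which under the control of SOX10, OLIG1, OLIG2 and MYRF make a shared set of membrane proteins and lipid enzymes.

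All levels given here are scaled values: the deposited normalized read count of a gene divided by the size factor of its sample (the median over genes of the ratio to the geometric mean). Before scaling, values summed to 17.37 to 19.44 M per Veh sample and 15.65 to 18.75 M per sGC sample (M, mega), a difference of -1.02 M (exact permutation test, two-sided, p = 0.183, smallest possible p 0.00794). PVN markers were abundant in every sample, with OXT between 21250 and 80820 and AVP between 27580 and 104600. The punches were uneven in both groups: TCF7L2, a transcription factor abundant in thalamus, ranged from 401.1 to 4703 in Veh and from 612.7 to 3073 in sGC. The first principal component held 50.6% of the variance, with Veh 28 (41.3) at one end and Veh 22 (-21.5) and sGC 30 (-18.8) at the other. Of the marker genes looked for, PDGFRA, C1QA, RGS5, ACTA2, DCN, COL1A1, TTR and AGRP were not analysed here.

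Myelin genes were lower and cilium genes higher in F2 sGC, but no single gene passed the adjusted test used here. The study, with edgeR on the same animals, did report F2 genes at a false discovery rate under 0.05. In limma with Benjamini-Hochberg adjustment 0 of 11965 genes (0%) had an adjusted p under 0.05. The smallest adjusted p was 0.0562, shared by 14 genes. An adjusted p under 0.1 was reached by 66 genes (0.552%), 22 higher (0.184%) and 44 lower (0.368%). At an unadjusted p under 0.05 limma gave 1535 genes (12.8%), 816 higher (6.82%) and 719 lower (6.01%). In 384 genes (3.21%) the 5 sGC and 5 Veh values did not overlap, 156 with sGC above (1.3%) and 228 with sGC below (1.91%). The F2 values, normalized by residuals in the study, had almost no spread in 1 direction beyond centring (singular value 0.25, the next larger 13.6). The tests did not count this loss, so p-values and shares without overlap may be too favourable. Over all genes the log2 fold change had a median of -0.00203. The count under an adjusted p of 0.05 was also 0 with no scaling or with scaling to the sum of values, but was 42 (13 higher, 29 lower) after quantile normalization. It was 128 (75 higher, 53 lower) without Veh 22 and Veh 28, a choice made after seeing the data.

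**Figure D1:**
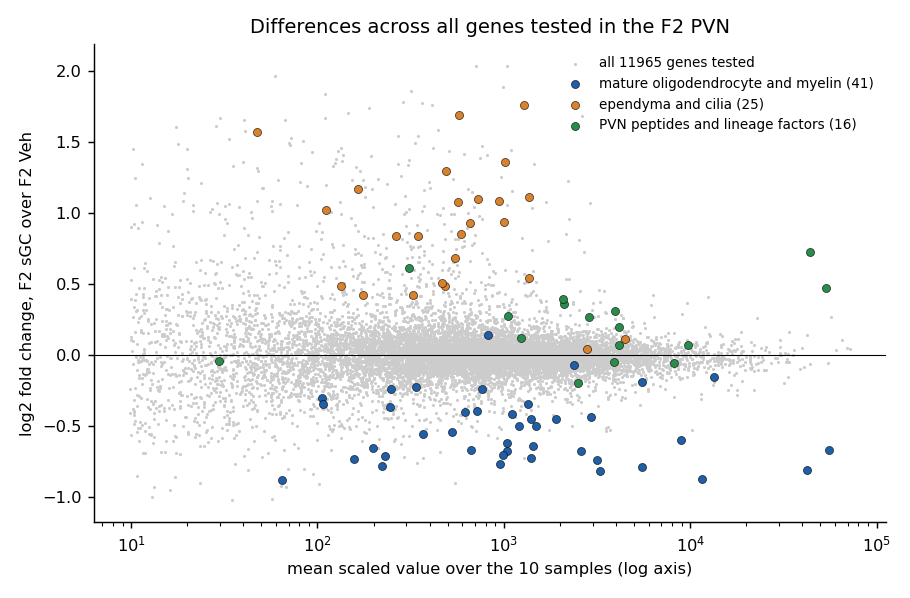
Mean scaled value over the 10 F2 samples (log axis) against the log2 fold change of F2 sGC over F2 Veh for every gene tested, with 3 gene lists coloured. Of the 41 myelin genes 40 lie below 0, and all 25 ependyma and cilia genes lie above 0.

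Genes of mature oligodendrocytes and myelin were lower in F2 sGC as a group. Of 41 members tested, 40 had a fold change below 0, and 34 were lower at an unadjusted p under 0.05, against 6.01% of all genes, with 0 higher. In 24 of the 41 every sGC value lay below every Veh value, against 1.91% of all genes, and 8 had an adjusted p under 0.1, against 0.368% of all genes in that direction. The median log2 fold change was -0.55, within a range of -0.88 to 0.14. The list was chosen with earlier results of these data known, so these counts are no independent evidence. It holds ANLN, MYO1D, GALNT6 and CDH19, which the study names for F1 and F2 on these samples. Without those genes the median was -0.502. The values of the list summed to 185100 to 315300 in Veh and 119000 to 155400 in sGC, with no overlap. In tissue of mixed cells, fewer cells of a type and less RNA per cell cannot be told apart.

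The structural proteins of compact myelin were the most abundant members. MBP, which holds the inner faces of the myelin membrane together, was at 48230, 84940, 47620, 41680 and 49710 in Veh and 29130, 29810, 35330, 23280 and 34490 in sGC (Veh animals 22, 23, 27, 28 and 29, sGC animals 21, 26, 30, 24 and 25, an order kept below). The groups did not overlap, and the mean of MBP on the log scale was 1.75-fold lower in sGC (-0.81 ± 0.18 SE, adjusted p = 0.122). MOBP, a small basic protein of the same layers, was at 11950, 26330, 12980, 12190 and 12450 in Veh and 7677, 7690, 8424, 6596 and 9182 in sGC. Its difference was 1.83-fold (-0.87 ± 0.20, adjusted p = 0.127), again with all sGC animals below all Veh animals.

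Veh 23 held the highest value of both genes, so the list was also described without that animal. Without Veh 23 the median was -0.47, with 32 members lower at an unadjusted p under 0.05. Leaving out each animal in turn gave medians from -0.62 to -0.47 and 30 to 35 lower members. Without Veh 22 and Veh 28 together the median was -0.61.

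MAG, an adhesion protein facing the axon, was 4260 ± 1870 in Veh and 2300 ± 369 in sGC (mean ± SD, n = 5, -0.82 ± 0.22). MOG, found on the outermost layer of the sheath, was 3970 ± 1120 in Veh and 2340 ± 321 in sGC (-0.74 ± 0.16). CNP, an enzyme bound to the cytoskeleton of oligodendrocytes, was 10900 ± 2640 in Veh and 7060 ± 687 in sGC (-0.60 ± 0.14). None of these 3 genes overlapped between groups, and their adjusted p-values were 0.169, 0.105 and 0.117.

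Less abundant membrane and cytoskeletal members had the smallest p-values of the list. PLLP, a proteolipid that takes part in myelin membrane sorting, was at 1707, 2236, 1642, 1445 and 1670 in Veh and 1017, 999.9, 1171, 900.6 and 1151 in sGC (-0.72 ± 0.11, adjusted p = 0.0562). The 5 sGC animals lay close together and below all 5 Veh animals. The septin SEPT4 (-0.45 ± 0.072) and the unconventional myosin MYO1D (-0.55 ± 0.089) shared that adjusted p. CLDN11, the tight junction protein of myelin, differed by more but with a larger error (-0.79 ± 0.20, adjusted p = 0.147). TSPAN2 was the 1 member above 0 (0.14 ± 0.069).

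Regulators of the oligodendrocyte lineage were lower too. SOX10, which activates myelin genes, was at 1346, 1802, 1314, 1251 and 1357 in Veh and 1002, 1023, 1005, 925.6 and 997.1 in sGC (-0.50 ± 0.087, adjusted p = 0.0598). OLIG1 was 4210 ± 980 in Veh and 2900 ± 248 in sGC (-0.51 ± 0.13), and OLIG2 was 989 ± 144 in Veh and 783 ± 37.8 in sGC (-0.33 ± 0.089). No sGC animal reached the lowest Veh animal in any of the 3. They were the only ones of the 13 members of the precursor list with an unadjusted p under 0.05, against 6.01% of all genes lower. They were also its only members without overlap, against 1.91% of all genes with sGC below. That list had a median of -0.15. CSPG4, a proteoglycan of precursors, was at 458.4 in Veh and 383.1 in sGC on average, and VCAN, another, at 827.7 and 894.6. Chosen after their values were seen, MYRF (-0.64 ± 0.14), the transcription factor that starts myelination, and UGT8 (-0.68 ± 0.14) and FA2H (-0.77 ± 0.13), enzymes of the galactolipids of myelin, were lower by amounts within the range of the structural genes.

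**Figure D2:**
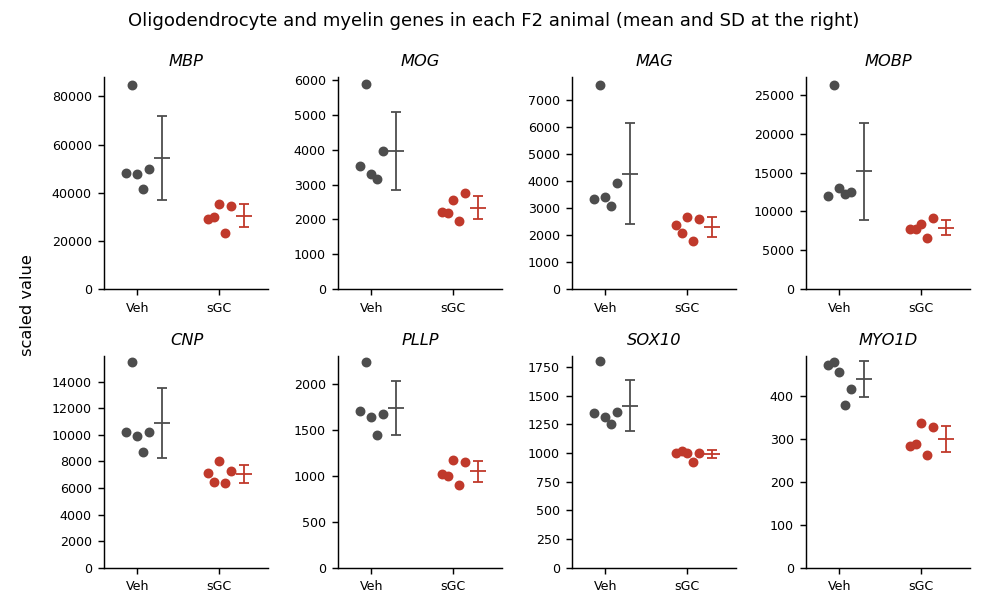
Scaled value (vertical axis, from 0) of 8 oligodendrocyte and myelin genes in each F2 animal, Veh in grey and sGC in red, with the mean and SD of 5 animals at the right of each group. In every panel the 5 sGC points lie below the 5 Veh points, and the highest Veh point is Veh 23.

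Several genes outside the myelin list were among the 12 lower genes with the smallest p-values. WNT4, a secreted Wnt ligand, was at 374.7, 338.4, 324.9, 308.4 and 366.5 in Veh and 246.5, 268.7, 232.4, 240.5 and 254.6 in sGC (-0.46 ± 0.072, adjusted p = 0.0562). It was lower in every sGC animal than in any Veh animal. CMTM5, a MARVEL domain protein, was 978 ± 133 in Veh and 658 ± 29.5 in sGC (-0.56 ± 0.085), and PCSK6, a proprotein convertase, was 371 ± 41.8 in Veh and 249 ± 23.8 in sGC (-0.57 ± 0.091). ARHGEF2, an exchange factor for RhoA, had little spread in either group, 1760 ± 49.3 in Veh and 1470 ± 63.5 in sGC (-0.26 ± 0.041). C11orf96 (-0.41 ± 0.064), the organic anion transporter SLCO3A1 (-0.41 ± 0.067) and SHISA4 (-0.31 ± 0.052) were also in the set, whose adjusted p-values were 0.0562 or 0.0598. Among genes without overlap whose mean reached 50, the lowest fold changes were those of FADS6, a fatty acid desaturase family member (-0.90 ± 0.19, adjusted p = 0.103), GALNT6, a glycosyltransferase (-0.88 ± 0.23, adjusted p = 0.157), and MOBP.

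Genes of ependyma and motile cilia were higher in F2 sGC as a group, with overlapping animals. All 25 members tested were above 0, and 20 were higher at an unadjusted p under 0.05, against 6.82% of all genes, with a median log2 fold change of 0.93. In 0 of the 25 did the groups separate, against 1.3% of all genes. ROPN1L, a protein of the radial spokes, was at 511, 445.6, 409.4, 332.9 and 360 in Veh and 453.7, 567.8, 927.8, 600.8 and 842 in sGC (0.69 ± 0.19, adjusted p = 0.177). CCDC39, which sets the repeat length of the axoneme, was at 370, 253.6, 244.1, 154.2 and 221 in Veh and 299.5, 406.4, 630.8, 365.9 and 510.3 in sGC (0.84 ± 0.24, adjusted p = 0.187). In both, sGC 30 was the highest and Veh 28 the lowest animal, and Veh 22 was above sGC 21. CFAP54 (0.54 ± 0.15) and CFAP43 (1.10 ± 0.36), further axonemal proteins, were also higher.

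The level of the cilia list was uneven among Veh animals. Its mean deviation from the average of the 10 animals was -1.67 log2 units in Veh 28 and 0.517 in Veh 22, -0.459 to -0.181 in the other Veh animals and 0.0831 to 0.984 in sGC animals. Without Veh 28 the median was 0.62 with 17 members higher at an unadjusted p under 0.05. Without sGC 30 it was 0.72 with 8, and without both Veh 22 and Veh 28 0.87 with 24. FOXJ1, the transcription factor that commits cells to motile cilia, was 4290 ± 430 in Veh and 4620 ± 169 in sGC (0.11 ± 0.066, adjusted p = 0.536). The axonemal marker RSPH1 was at 410 in Veh and 725 in sGC on average (1.08 ± 0.45), and TMEM212 at 33.99 and 60.68 (1.57 ± 0.82). For TMEM212, Veh 28 was near the floor at 1.021, with 15.86 to 101.1 in the other Veh animals, which enlarges its difference on the log scale.

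**Figure D3:**
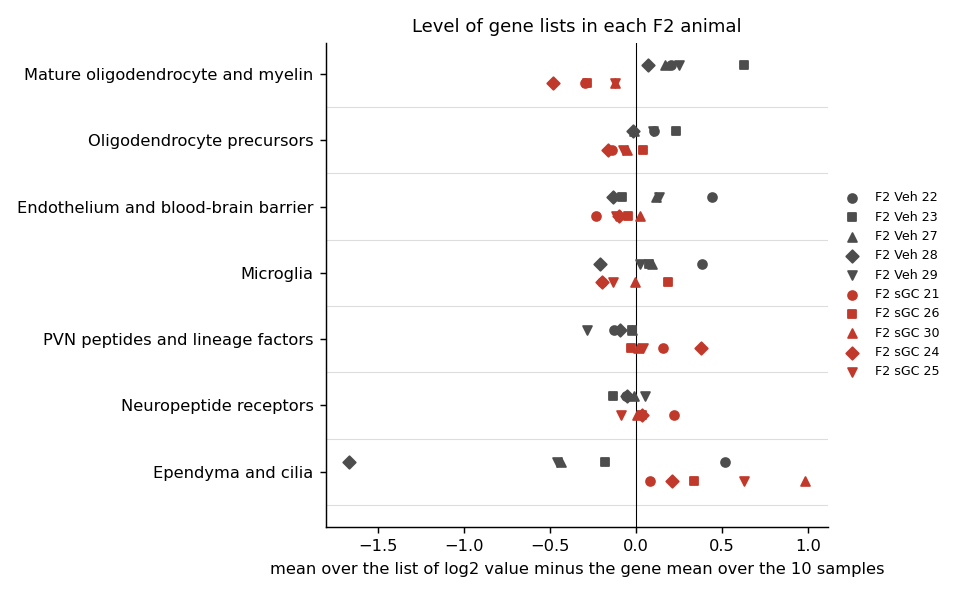
Mean deviation of 7 gene lists in each F2 animal (horizontal axis, log2 units from the mean of the 10 animals), Veh in grey and sGC in red, 1 symbol for each animal. For the myelin list all sGC animals (-0.483 to -0.121) lie below all Veh animals (0.0661 to 0.626), while for the cilia list Veh 22 lies among the sGC animals and Veh 28 lies far below all others.

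None of the 12 higher genes with the smallest p-values is in the cilia list. Their groups did not overlap, against 1.3% of all genes with sGC above, but a choice by p-value on the same animals favours this. TMEM67, a membrane protein of the ciliary transition zone, was at 507.3, 473.2, 477.9, 429.9 and 456.1 in Veh and 580.3, 656.4, 674.2, 578 and 674 in sGC (0.43 ± 0.067, adjusted p = 0.0562). FAM161A, a protein of the ciliary base, was 476 ± 13.1 in Veh and 587 ± 23.4 in sGC (0.30 ± 0.047). CEP83, which docks the basal body to the membrane, was 425 ± 49.1 in Veh and 642 ± 94 in sGC (0.59 ± 0.11), and the centrosomal protein CEP126 was 460 ± 48.3 in Veh and 678 ± 86.8 in sGC (0.56 ± 0.10). RFX3, a transcription factor of cilium genes, was 1030 ± 41.3 in Veh and 1270 ± 99.8 in sGC (0.30 ± 0.057). PPP1R17, a phosphatase inhibitor, had the smallest p-value of the higher genes, at 187.3, 178.2, 184, 172.6 and 153.9 in Veh and 265.1, 353.3, 287.4, 273.6 and 241.8 in sGC (0.69 ± 0.10, adjusted p = 0.0562). Its lowest sGC animal was above its highest Veh animal. The rest were the co-chaperone DNAJA4 (0.28 ± 0.049), the solute carrier SLC7A4 (0.26 ± 0.046), WDR31 (0.43 ± 0.068), FSD1L (0.33 ± 0.061), MDH1B (0.36 ± 0.068) and LMLN (0.30 ± 0.058), and adjusted p-values of the 12 ran from 0.0562 to 0.0706.

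Peptides and lineage factors of the PVN were higher in part. Of 16 tested, 12 were above 0 and 6 were higher at an unadjusted p under 0.05, against 6.82% of all genes, with 0 lower and a median of 0.23. The groups separated in 0 of them. POU3F2, a transcription factor needed for CRH, vasopressin and oxytocin neurons, was at 2153, 1899, 1960, 1675 and 1564 in Veh and 2102, 2300, 2153, 2828 and 2462 in sGC (0.36 ± 0.10, adjusted p = 0.181). OTP, which acts in the same lineage, was 1780 ± 140 in Veh and 2370 ± 461 in sGC (0.39 ± 0.12), and SIM1, required for PVN formation, was 953 ± 55.7 in Veh and 1170 ± 193 in sGC (0.28 ± 0.10). sGC 24 was the highest animal for all 3, and sGC 30 the lowest sGC animal for OTP and SIM1.

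OXT, the oxytocin precursor, was at 42480, 39010, 33220, 29380 and 21250 in Veh and 33920, 52260, 47450, 80820 and 62270 in sGC (0.72 ± 0.24, adjusted p = 0.242). CRH was at 242, 283.3, 267.6, 258.3 and 151.1 in Veh and 329, 341.5, 246.9, 645.2 and 341.3 in sGC (0.62 ± 0.24, adjusted p = 0.324). In each of these peptides 4 of 5 sGC animals exceeded every Veh animal, with sGC 24 the highest. AVP (0.47 ± 0.30), TRH (0.27 ± 0.19) and SST (0.20 ± 0.36) had larger errors relative to their differences. The difference of SST was below 0 without Veh 28 (-0.055). Without sGC 24 the difference was 0.408 for CRH, 0.266 for AVP and 0.163 for TRH, and the median of the list was 0.16.

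The corticosteroid receptors of the stress axis had no unadjusted p under 0.05. Of 18 genes of the HPA list, CRH and JUN (0.17 ± 0.071) were higher at an unadjusted p under 0.05, against 6.82% of all genes, 0 were lower, and the median was 0.038. The glucocorticoid receptor NR3C1 was 2560 ± 173 in Veh and 2660 ± 110 in sGC (0.054 ± 0.052, with its sign turned when values were not scaled), and the mineralocorticoid receptor NR3C2 was 572 ± 51.3 in Veh and 536 ± 42.3 in sGC (-0.094 ± 0.076). FKBP5, a chaperone induced by glucocorticoids, was 94.3 ± 27.2 in Veh and 102 ± 18 in sGC (0.14 ± 0.20). HSD11B2, which inactivates cortisol, was 20.1 ± 3.34 in Veh and 16.8 ± 5.54 in sGC (-0.28 ± 0.23). Of 18 glucocorticoid target genes 1 was higher, ZBTB16 (0.19 ± 0.076), and 2 were lower, ERRFI1 (-0.20 ± 0.058) and the glucose transporter SLC2A1 (-0.16 ± 0.053), near the 6.82% and 6.01% of all genes. Of 17 immediate early genes JUN was higher and JUNB (-0.24 ± 0.084), ARC (-0.30 ± 0.11) and EGR4 (-0.49 ± 0.22) were lower at an unadjusted p under 0.05, against the same shares.

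**Figure D4:**
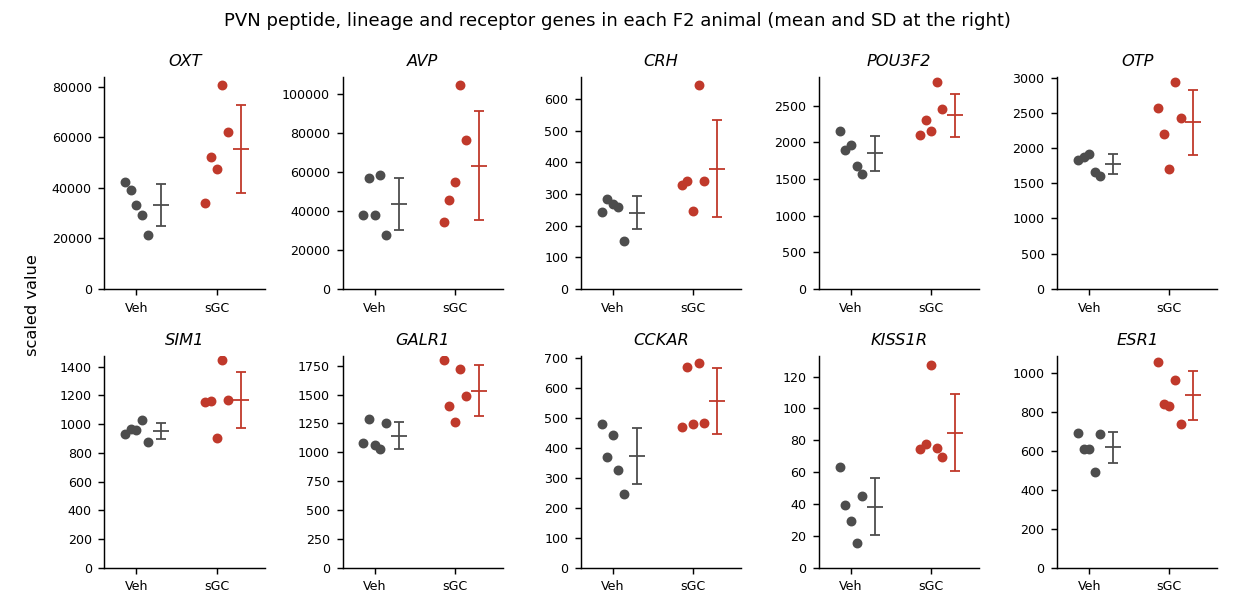
Scaled value (vertical axis, from 0) of 10 PVN peptide, lineage factor and receptor genes in each F2 animal, Veh in grey and sGC in red, with the mean and SD of 5 animals at the right of each group. The groups overlap for OXT, AVP, CRH, POU3F2, OTP, SIM1, GALR1 and CCKAR, and do not overlap for KISS1R and ESR1.

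Several receptors for peptides were higher, although the receptor list as a whole was centred near 0. Of 36 neuropeptide receptors 8 were higher and 0 lower at an unadjusted p under 0.05, against 6.82% of all genes, and 2 did not overlap, against 1.3%. The median of 0.026 turned to -0.048 with no scaling and to -0.037 without sGC 21. The higher members numbered 4 without sGC 21, Veh 23 or Veh 28. GALR1, a galanin receptor, was at 1082, 1289, 1064, 1028 and 1253 in Veh and 1795, 1399, 1263, 1721 and 1484 in sGC (0.42 ± 0.10, adjusted p = 0.147). KISS1R, the kisspeptin receptor, was at 63.06, 39.25, 29.11, 15.32 and 44.77 in Veh and 74.63, 77.75, 127.3, 75.24 and 69.54 in sGC (1.23 ± 0.33, adjusted p = 0.16). All sGC animals were above all Veh animals for KISS1R, while GALR1 overlapped by sGC 30. NPFFR1 (0.38 ± 0.10), a receptor for RFamide peptides, was the other one without overlap. CCKAR, a cholecystokinin receptor, was 372 ± 92.7 in Veh and 557 ± 110 in sGC (0.60 ± 0.18). Of 27 feeding peptides and receptors 7 were higher and 0 lower, against 6.82% of all genes, with a median of 0.15 that was 0.076 with no scaling. The higher members numbered 3 without Veh 29 and 4 without Veh 28, sGC 21 or sGC 24. Among these, NPY1R (0.25 ± 0.11) and NPY5R (0.31 ± 0.14), receptors for neuropeptide Y, were chosen for naming after their values were seen.

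Of the 13 gonadal steroid genes 2 were higher and 1 lower at an unadjusted p under 0.05, near the 6.82% and 6.01% of all genes given the size of the list. ESR1, oestrogen receptor alpha, was at 694.6, 613.2, 613.1, 491.1 and 686.5 in Veh and 1061, 840.4, 832.4, 966.7 and 740.3 in sGC (0.52 ± 0.11, adjusted p = 0.108), without overlap. PGR, the progesterone receptor, was 40.4 ± 4.56 in Veh and 58.8 ± 12 in sGC (0.52 ± 0.15). GREB1, a gene regulated by oestrogen, was lower at 303 ± 21.8 in Veh and 264 ± 26.6 in sGC (-0.20 ± 0.082). PTGFR, the prostaglandin F receptor (0.76 ± 0.15, adjusted p = 0.0876), and LRRC56, a protein of cilia (1.36 ± 0.41), were, with KISS1R, the 3 largest higher differences without overlap among genes whose mean reached 50.

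All 18 endothelial and blood-brain barrier genes were below 0 (median -0.18), and 4 were lower at an unadjusted p under 0.05, against 6.01% of all genes. These were SLC2A1, ESAM (-0.26 ± 0.094), CDH5 (-0.45 ± 0.17) and the VEGF receptor FLT1 (-0.13 ± 0.057). The median was -0.10 without Veh 22, and 9 members were lower without Veh 28. CDH5, the cadherin of endothelial junctions, was at 780.8, 406.3, 551.1, 368.6 and 547.5 in Veh and 359.4, 362.2, 367.5, 397.8 and 383 in sGC. Its Veh animals spread widely, with Veh 22 the highest and Veh 28 within the sGC range. Other endothelial markers, PECAM1 (-0.30 ± 0.15) and CLDN5 (-0.27 ± 0.13), had an adjusted p of 0.448 and 0.439. All 10 mural genes were below 0 too, PDGFRB (-0.25 ± 0.11) among them, with 2 lower at an unadjusted p under 0.05 and 0 without Veh 22. All 18 microglial genes were below 0 (median -0.15), with 0 at an unadjusted p under 0.05, and their median was -0.058 without Veh 22. Of 18 astrocyte genes 9 were above and 9 below 0, with 4 lower and 0 higher at an unadjusted p under 0.05. SLC7A10, an amino acid transporter, was lower without overlap (-0.11 ± 0.039, adjusted p = 0.267), while AQP4 (0.27 ± 0.14) and GFAP (0.41 ± 0.47) did not pass. The lower astrocyte members numbered 1 without Veh 29 or sGC 30 and 2 without Veh 23 or sGC 24. Neuronal markers were below 0 in 12 of 13, SYT1 (-0.21 ± 0.18) and SNAP25 (-0.13 ± 0.10) among them, with 0 at an unadjusted p under 0.05.

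Beside the myelin result, the summed level of the microglial list was 4418 to 6148 in Veh and 4390 to 5448 in sGC, and that of the endothelial list 14830 to 19800 and 13680 to 15540. The list of neighbouring hypothalamus and thalamus summed to 18830 to 26400 in Veh and 20370 to 33290 in sGC. Of its 22 members 15 were above 0, with a median of 0.145. At an unadjusted p under 0.05, 1 was higher and 0 lower, against 6.82% and 6.01% of all genes. The part of these cells and regions in the other results was not tested.

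All 28 complex I genes were below 0 (median -0.075), 7 were lower at an unadjusted p under 0.05, against 6.01% of all genes, and 4 did not overlap, against 1.91%. These are nuclear genes for subunits of the respiratory chain. NDUFS6, an accessory subunit, was at 849.5, 767, 753.9, 742.3 and 796.5 in Veh and 645.1, 684, 641.4, 721.6 and 671.9 in sGC (-0.22 ± 0.053, adjusted p = 0.147). NDUFV3 (-0.20 ± 0.05), NDUFB9 (-0.14 ± 0.037) and NDUFA6 (-0.14 ± 0.041) had the next smallest p-values. Of 21 genes of complexes II to IV 7 were lower and 0 higher, and of 12 ATP synthase genes 5 and 0, against 6.01% and 6.82% of all genes. Cytosolic ribosome genes were below 0 in 50 of 53, with 1 lower at an unadjusted p under 0.05. That number was 8 without Veh 28, 5 without sGC 24, 3 without sGC 26, 0 without Veh 22 and 11 with no scaling.

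The following counts of members with an unadjusted p under 0.05 stand against 6.82% of all genes higher and 6.01% lower. Of 66 potassium channel genes 2 were higher and 4 lower, among the lower the leak channel KCNK1 (-0.43 ± 0.076, adjusted p = 0.0598) and the axonal channel KCNA1 (-0.58 ± 0.14). Of 69 heat shock and chaperone genes 4 were higher, HSPA4L (0.20 ± 0.053) and DNAJA4 among them, and 2 lower, DNAJC7 (-0.53 ± 0.12) among them. Higher and lower members numbered 0 and 4 of 27 glutamate genes, 1 and 0 of 21 GABA genes, 1 and 0 of 22 clock genes, and 2 and 2 of 28 monoamine and acetylcholine receptors. They numbered 0 and 5 of 66 mitochondrial ribosome genes, 0 and 4 of 29 proteasome genes, 0 and 0 of 20 TCA cycle genes, 1 and 3 of 21 antioxidant enzymes, 1 and 3 of 19 cholesterol synthesis genes and 1 and 3 of 26 fatty acid and triglyceride genes. For the cell surface and matrix they numbered 0 and 3 of 25 collagens, 2 and 3 of 25 laminins and integrins, and 0 and 5 of 24 junction genes. For signalling and chromatin they numbered 2 and 5 of 58 cytokine genes, 1 and 0 of 21 interferon genes, 1 and 1 of 17 thyroid hormone genes, 1 and 0 of 26 insulin and IGF genes and 1 and 0 of 26 DNA methylation and one-carbon genes.

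The 11 genes that the study lists for both F1 and F2 were chosen on these samples, so their values are no independent evidence. Of these, 9 were lower and 1 higher in F2 sGC at an unadjusted p under 0.05, against 6.01% and 6.82% of all genes. RAPGEF5, an exchange factor for Rap proteins, was at 1556, 1810, 1533, 1462 and 1822 in Veh and 1361, 1180, 1152, 1089 and 1153 in sGC (-0.46 ± 0.078, adjusted p = 0.0598). CDC42EP2, an effector of CDC42, was at 120.6, 159.1, 130.5, 133.8 and 139 in Veh and 96.23, 79.71, 98.38, 86.64 and 99.5 in sGC (-0.56 ± 0.10, adjusted p = 0.0598). Both were lower in each sGC animal than in any Veh animal. MYO1D, GALNT6, the actin binding protein ANLN (-0.54 ± 0.11), KCNA1, the collagen COL18A1 (-0.49 ± 0.13), GALNT15 (-0.72 ± 0.21) and the cadherin CDH19 (-0.73 ± 0.23) were the other lower genes. TRIM66 was the higher one (0.35 ± 0.07, adjusted p = 0.088). Of the genes for which the study lists primers, SDCBP2 was 113 ± 87.6 in Veh and 162 ± 62.6 in sGC (0.67 ± 0.41) and GABRD, a GABA-A receptor subunit, was 643 ± 307 in Veh and 558 ± 109 in sGC (-0.10 ± 0.28).

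Whether the F2 difference was the same as that of the directly exposed F1 generation (5 Veh and 5 sGC juvenile females, in a table normalized separately) was tested for each gene as the F2 effect minus the F1 effect. The effects differed in 516 of 11612 genes (4.44%) at an adjusted p under 0.05, with the F2 effect above in 182 (1.57%) and below in 334 (2.88%). Of the 334, 125 were lower in F2 at an unadjusted p under 0.05 and 259 had an adjusted p under 0.05 within F1. Of the 182, 34 were higher in F2 and 147 had an adjusted p under 0.05 within F1. With no scaling the count was 159, 4 above and 155 below. Without Veh 23 or Veh 27 it was 296, without Veh 29 230, without sGC 26 256 and without sGC 24 241.

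The 8 genes with the smallest p-values all had an F2 effect below the F1 effect. EP300, a histone acetyltransferase, was at 1027 to 1072 in F1 Veh and 1487 to 1585 in F1 sGC, and at 1430 to 1625 in F2 Veh and 1452 to 1580 in F2 sGC, a difference of effects of -0.56 ± 0.052 (adjusted p = 1.44e-05). KDM6B, a histone demethylase, was at 160.2 to 197 and 296.4 to 358.7 in F1 and at 275.1 to 326.8 and 277.9 to 351.1 in F2 (-0.82 ± 0.11, adjusted p = 0.000401). In both genes the F1 groups were apart and the F2 groups overlapped. KMT2E (-0.56 ± 0.057), the nucleosome remodelling protein BPTF (-0.44 ± 0.05), the Mediator subunit MED12 (-0.70 ± 0.086), the remodeller CHD2 (-0.71 ± 0.09) and ANKFY1 (-0.61 ± 0.076) followed. ARHGEF2 was higher in F1 sGC (0.23 ± 0.058) and lower in F2, a difference of -0.49 ± 0.07 (adjusted p = 0.00153).

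In the myelin list the F2 effect was below the F1 effect in 6 of 38 genes, against 2.88% of all genes, and above it in 0. The median log2 fold change of the list was 0.27 in F1. MYO1D (-1.11 ± 0.25, adjusted p = 0.0221), MYRF (-1.14 ± 0.32, adjusted p = 0.046) and GALNT6 (-1.56 ± 0.38, adjusted p = 0.0301) had F1 effects above 0. MYO1D was at 321.3 to 371.8 in F1 Veh and 343.8 to 474.9 in F1 sGC, except 810.2 and 711.2 in animals 4 and 8. GALNT6 was at 24.12 to 53.01 in F1 Veh and 40.18 to 57.29 in F1 sGC, except 79.49 and 98 in animals 4 and 8. No F1 animal was left out of any fit. The differences of MBP (-1.23 ± 0.36, adjusted p = 0.0532) and PLLP (-0.94 ± 0.27, adjusted p = 0.0511) did not reach the threshold. Of the 11 genes of the study 7 differed, all with F2 below, RAPGEF5 (-1.05 ± 0.16, adjusted p = 0.00204) and CDC42EP2 (-1.05 ± 0.18, adjusted p = 0.00591) with the smallest p-values. The 11 were chosen on these F1 and F2 samples, so their differences are no independent evidence. RAPGEF5 was at 973.3 to 1132 in F1 Veh and 1235 to 1437 in F1 sGC, except 1663 and 2097 in animals 4 and 8. CDC42EP2 was at 68.21 to 90.37 in F1 Veh and 85.14 to 105.7 in F1 sGC, except 129.3 and 147.5 in those animals. CDH5 (-1.21 ± 0.31, adjusted p = 0.0376), GREB1 (-0.63 ± 0.12, adjusted p = 0.00868), NR3C2 (-0.41 ± 0.092, adjusted p = 0.0221) and the clock gene CLOCK (-0.30 ± 0.084, adjusted p = 0.0432) also lay below F1.

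In the PVN list the F2 effect was above the F1 effect in 1 of 16 genes, against 1.57% of all genes, and below it in 0. The median of the list was -0.41 in F1. The effect of OXT was above that in F1 by 2.33 ± 0.66 (adjusted p = 0.0491), from an F1 value of -1.61 ± 0.57. In F1, OXT was at 43350 to 90850 in Veh. The F1 sGC animals 4, 8, 12, 16 and 20 were at 7325, 10500, 58440, 66730 and 20340. Adjusted p-values of the OXT difference ran from 0.0442 to 0.0904 over the alternatives, which left out no F1 animal. CCKAR (1.47 ± 0.27, adjusted p = 0.00868), PTGFR (1.96 ± 0.47, adjusted p = 0.0285) and NPY1R (0.62 ± 0.17, adjusted p = 0.042), which are not in that list, were above F1 too. FAM161A (0.42 ± 0.094), SLC7A4 (0.40 ± 0.10) and CEP83 (0.72 ± 0.17) were above F1 with adjusted p-values of 0.0197, 0.0384 and 0.0269. In F1, SLC7A4 was at 1415 to 1510 in Veh and 1462 to 1545 in sGC, except 1179 and 1084 in sGC animals 4 and 8. CRH (1.85 ± 0.56, adjusted p = 0.0602) and AVP (2.01 ± 0.69, adjusted p = 0.0931) did not reach the threshold. For the thalamic gene TCF7L2 the effect was -1.47 ± 0.54 in F1 and 0.15 ± 0.75 in F2, and its part in these differences was not tested.

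Against F3 (6 Veh and 6 sGC juvenile females, sequenced in batches that the authors corrected for), the effects differed in 201 of 11638 genes (1.73%), with F2 above in 80 (0.687%) and below in 121 (1.04%). Of the 121, 116 were lower in F2 at an unadjusted p under 0.05 and 0 had an adjusted p under 0.05 within F3. Of the 80, 69 were higher in F2 and 1 had an adjusted p under 0.05 within F3. The count was 712 without Veh 22, 342 without Veh 28, 119 without sGC 30 and 106 without sGC 24. With no scaling it was 177, 10 above and 167 below.

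Myelin genes made up part of this difference. In that list 17 of 39 were below F3, against 1.04% of all genes, and 0 above, from an F3 median of 0.062. MBP (-0.86 ± 0.21, adjusted p = 0.0384), MOBP (-0.95 ± 0.21, adjusted p = 0.0316), MAG (-0.98 ± 0.25, adjusted p = 0.0459), MOG (-0.89 ± 0.19, adjusted p = 0.0289) and CNP (-0.69 ± 0.16, adjusted p = 0.0348) were among them. SOX10 (-0.64 ± 0.10) shared the adjusted p of 0.00961 with PCSK6 (-0.79 ± 0.12), the scaffold protein GRASP (-0.62 ± 0.10), REEP3 (-0.61 ± 0.10), the acyltransferase AGPAT4 (-0.38 ± 0.063), the secretase BACE1 (-0.27 ± 0.046) and, above F3, SLC7A4 (0.27 ± 0.045).

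In the cilia list 0 of 25 genes differed from F3, at a median difference of 0.93. Outside it TMEM67 (0.40 ± 0.078), CEP126 (0.68 ± 0.13), CEP83 (0.73 ± 0.16), WDR31 (0.58 ± 0.11) and PPP1R17 (1.20 ± 0.27) were above F3. So were KISS1R (1.37 ± 0.35, adjusted p = 0.0459) and NPFFR1 (0.50 ± 0.10, adjusted p = 0.0192), while NDUFS6 (-0.29 ± 0.07, adjusted p = 0.0358) and ESAM (-0.39 ± 0.10, adjusted p = 0.0418) were below. Both tests called 36 genes, 31 below and 5 above in both, and they share the F2 samples. CMTM5, PCSK6, KCNK1 and BACE1 were below F1 and F3, and SLC7A4 and CEP83 above both. Over the alternatives only PCSK6 of these stayed under an adjusted p of 0.05 in both tests. The adjusted p reached 0.402 against F1 and 0.185 against F3 for SLC7A4, and 0.165 and 0.0784 for CEP83.

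**Figure D5:**
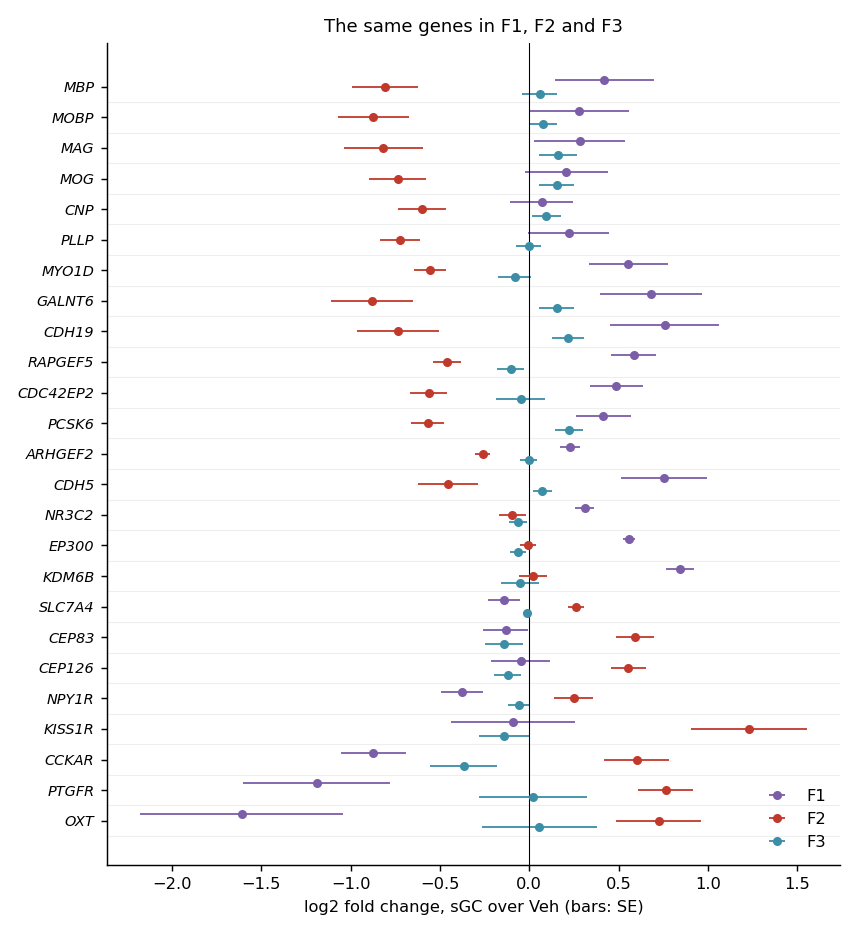
Log2 fold change of sGC over Veh (horizontal axis, bars SE) for 25 genes in F1, F2 and F3, each fitted within its own table. MBP to NR3C2 are below 0 in F2, SLC7A4 to OXT are above 0 in F2, and EP300 and KDM6B are near 0 in F2 and above 0 in F1.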

How the data were processed

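PVN micropunches of 10 F2 animals were sequenced by the authors. Per the study's methods, reads were aligned to cavPor3 (the submitters' processing notes name TopHat2), counted per gene with GenomicAlignments, cleared of outliers by Cook's distance and normalized with RUVSeq. The deposited values are therefore a score, normalized read counts that the authors rounded to whole numbers, one column per sample with no pooling and with unequal totals. The study used edgeR for its own comparison, and those columns of the tables (twd, log fold change, log CPM, likelihood ratio, p-value and adjusted p-value) were not used here. The F3 table was corrected by the authors for sequencing batch before normalization.

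Values were divided by median-of-ratios size factors (0.8772 to 1.078), computed within each table, and log2(value + 1) was tested with limma 3.58.1 (R 4.3.3, lmFit and eBayes with trend), since a count model does not suit normalized values. Fold changes are on that log scale, so low genes appear to change less than they do. Genes with a mean of at least 10 were tested, with Benjamini-Hochberg adjustment over all of them and a threshold of 0.05. Differences between generations were contrasts of 1 fit over 4 group means, over genes in both tables. The fits were tested on simulated data. Alternatives were no scaling, scaling to the sum of values, quantile normalization, pseudocounts of 0.5 and 10 and mean minimums of 1 and 50. No trend, leaving out each F2 animal, and the F2 direction of almost no spread as a covariate were others. With that covariate 0 genes had an adjusted p under 0.05 in F2. Of the gene names 20 were spreadsheet dates, and 9 of these were renamed to SEPT symbols. Samples of the series without a column were not analysed here.

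Genes were named by rule: the 12 higher and 12 lower with the smallest p-values at a mean of at least 50, the HPA genes and genes the study lists, up to 4 members of each list in the direction of its median and 2 in the other, the 8 with the smallest p-values in each test between generations, cell type markers, and the 3 largest differences each way without overlap. Some genes that the rule names are not reported here. The comparison and the 47 lists, of which 46 had a tested member, were chosen with earlier results of these data known. Python 3.11.15, pandas 2.3.3 and matplotlib 3.10.9 were used for summaries and figures.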

Additional observations from a re-analysis of the deposited data

Results flagged for a closer look

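Single animals stood apart from the other 4 of their group in 22 of the groups of 5 looked at (114 genes and 11 gene lists, each in Veh and sGC, with genes of a list not independent of each other), where Dixon's test at the 95% level flags about 1 in 20 by chance. Scaled values are given. Veh 23 stood apart in 13, in MBP (84940), MOG (5896), MAG (7560), MOBP (26330), CNP (15470), SOX10 (1802), UGT8 (4669), MYRF (2573), CLDN11 (11840), ARHGEF2 (1848), NPY5R (209), KCNK1 (1589) and DNAJC7 (16650). Veh 23 was the lowest Veh animal for NPY5R and the highest for the other 12 of these genes. Veh 29 stood apart in PCSK6 (444.9), PGR (48.5) and SDCBP2 (268.6), and Veh 22 in TMEM212 (101.1). sGC 30 stood apart in TMEM212 (116.7), KISS1R (127.3) and LRRC56 (162), and sGC 24 in SOX10 (925.6) and CRH (645.2).

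The effect of sGC in F2 differed from that in F1 in 516 genes and from that in F3 in 201 genes, in limma with Benjamini-Hochberg adjustment. F1 sGC 4 and 8 held the highest F1 values of MYO1D, GALNT6, CDH19, PCSK6, REEP3, RAPGEF5, CDC42EP2, GALNT15, ARHGEF2, BACE1, NR3C2 and KMT2E. These animals also held the lowest F1 values of OXT and SLC7A4, and no F1 animal was left out. The following values are F2 effect minus F1 effect in log2 units for named genes that passed this test. Below F1 were MYO1D (-1.11), MYRF (-1.14), CMTM5 (-0.509), ARHGEF2 (-0.489), PCSK6 (-0.984), SLCO3A1 (-0.538), NR3C2 (-0.405), CLOCK (-0.305), GREB1 (-0.626), CDH5 (-1.21), RAPGEF5 (-1.05), CDC42EP2 (-1.05), KCNA1 (-1.21), KCNK1 (-0.62), GALNT6 (-1.56), GALNT15 (-1.75), CDH19 (-1.49), EP300 (-0.565), KMT2E (-0.555), BPTF (-0.439), MED12 (-0.697), ANKFY1 (-0.61), CHD2 (-0.709), KDM6B (-0.825), REEP3 (-0.772) and BACE1 (-0.384). Above F1 were FAM161A (0.425), SLC7A4 (0.401), CEP83 (0.723), OXT (2.33), CCKAR (1.47), NPY1R (0.623) and PTGFR (1.96).

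The corresponding values of F2 effect minus F3 effect follow. Below F3 were MBP (-0.865), MOG (-0.889), MAG (-0.978), MOBP (-0.948), CNP (-0.694), PLLP (-0.718), SEPT4 (-0.479), SOX10 (-0.638), FA2H (-0.747), UGT8 (-0.751), OLIG2 (-0.37), CLDN11 (-0.916), CMTM5 (-0.649), ARHGEF2 (-0.26), C11orf96 (-0.438), WNT4 (-0.443), PCSK6 (-0.794), SLCO3A1 (-0.372), SHISA4 (-0.341), ESAM (-0.387), NDUFS6 (-0.295), NDUFB9 (-0.236), NDUFA6 (-0.221), KCNK1 (-0.388), GALNT6 (-1.03), CDH19 (-0.949), GRASP (-0.62), REEP3 (-0.614), AGPAT4 (-0.377), BACE1 (-0.274) and DNAJC7 (-0.616). Above F3 were PPP1R17 (1.2), TMEM67 (0.396), WDR31 (0.583), DNAJA4 (0.223), SLC7A4 (0.273), CEP126 (0.677), CEP83 (0.734), MDH1B (0.486), RFX3 (0.273), LMLN (0.359), NPFFR1 (0.504), KISS1R (1.37), TRIM66 (0.386) and HSPA4L (0.258).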

How the results depend on the processing

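No paired analysis was possible because F2 Veh and F2 sGC animals share no replicate numbers. The count of genes under an adjusted p of 0.05 in F2 was 0 in 16 of 20 alternatives, 42 after quantile normalization, 0 to 2 when each animal was left out in turn (2 without Veh 23 and 2 without Veh 28) and 128 without both Veh 22 and Veh 28, an exclusion chosen after seeing the data, as was dropping 4 genes the study names from the myelin list (median -0.502). The count of genes whose effect differed from F1 was 159 with no scaling and 230 to 747 when each F2 animal was left out. Against F3 it was 106 to 712 in that way and 562 without both animals. Of 78 named differences, 22 missed the threshold with no scaling, 14 with scaling to the sum of values and 33 without sGC 24, and none turned its sign.

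Fold changes near 0 turned their sign in a few genes. With no scaling these were ANKFY1 (-0.0265), BPTF (-0.0727), CHD2 (-0.0308), KDM6B (-0.0541) and NR3C1 (-0.0202). After quantile normalization KDM6B was at -0.00759, with scaling to the sum of values EP300 at 0.000652, and without both Veh 22 and Veh 28 BPTF at -0.00183 and SST at -0.0754. With each animal left out in turn, BPTF ran from -0.0169 to 0.0165, EP300 from -0.0363 to 0.0109, GABRD from -0.304 to 0.131, KDM6B from -0.0305 to 0.0535, KMT2E from -0.0391 to 0.002 and SST from -0.0552 to 0.446.

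List medians moved by more than the spread between animals mainly with no scaling, where the median of all genes was -0.0758: ATP synthase -0.141, cholesterol synthesis -0.163, DNA methylation and one-carbon metabolism -0.0593, heat shock and chaperones -0.0693, HPA -0.0359, insulin and IGF -0.0737, mitochondrial ribosome -0.0944, potassium channels -0.0828, proteasome -0.103, complex I -0.149, complexes II to IV -0.142, TCA cycle -0.117, thyroid -0.0708 and triglyceride and fatty acid synthesis -0.0818. Blood cells were at -0.024 with a mean of at least 1. With animals left out in turn, monoamine and acetylcholine receptors ran from -0.116 to 0.0399 and triglyceride and fatty acid synthesis from -0.0186 to 0.0302. The cause was not tested. No read counts or depths came with the values, so counting error is unknown.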
